A study of Drosophila melanogaster with 4 samples.

Results

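The loci described here are those of the receptor gene Notch (N, X:3020000-3075000) and of the gene of its ligand Delta (Dl, 3R:15100000-15190000), on FlyBase release 5 of the Drosophila melanogaster genome. Their members were all regions enriched for monomethylation of lysine 4 of histone H3 (H3K4me1) that overlapped either window by at least 1 base. There were 38 such regions of 26581 in all 3 deposited lists: 8 of 7177 in replicate 1, then 15 of 9903 in replicate 2, and 15 of 9501 in the combined list. Of the 38, 18 lay in the N locus and 20 in the Dl locus, and all 38 lay wholly inside their window. The mark was mapped by sequencing of immunoprecipitated chromatin (ChIP-seq). The chromatin came from larval nuclei of the wild-type strain Oregon-R at the third instar, the last larval stage. All 4 samples had this strain, genotype and stage: 2 were immunoprecipitated with a single lot of the antibody ab8895 against H3K4me1, and 2 were inputs, each serving as background for the list of the same replicate number. The combined list is named as a set of replicates and was taken to draw on both ChIP samples. It is no further replicate. Larvae are a mixture of tissues, so a mark present in few cells and a weak mark in many cells cannot be told apart here. Read depth is not known for any list.

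Notch is a transmembrane receptor that is activated by ligands on the surface of neighbouring cells. Binding of Delta leads to cleavage of the receptor, and the freed intracellular part enters the nucleus, where with the DNA-binding protein Suppressor of Hairless it switches on target genes such as those of the Enhancer of split complex. In the larva this exchange is known for singling out sensory organ precursors in the imaginal discs, for wing vein and wing margin formation, and for neural stem cell lineages. The receptor is made in most cells of the discs, whereas Delta is known for patterned expression. H3K4me1 is, in textbook accounts, a mark of enhancers and of the sequence beside active promoters.

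The receptor locus was covered by H3K4me1 over 2.30 times the share of the ligand locus on the replicate means, 3.11 times in replicate 1 and 1.76 times in replicate 2. Enriched regions covered 60.4% of the N locus in replicate 1 and 51.5% in replicate 2, which gave 56.0% ± 6.30 (SD, n = 2). They covered 19.4% of the Dl locus in replicate 1 and 29.3% in replicate 2, or 24.4% ± 7.00 (SD, n = 2). The ranges did not overlap, and N was the higher locus in both replicates. The difference was 41.0 percentage points in replicate 1 and 22.2 in replicate 2, with a mean of 31.6 ± 13.3 (SD, n = 2). In the combined list the shares were 67.0% and 33.2%. In kilobases the loci were closer, at 33.2 kb in N and 17.5 kb in Dl in replicate 1, and 28.3 and 26.4 kb in replicate 2. An exact test by sign flips over 2 replicates cannot go below a two-sided p of 0.5, so these are values with their spread. Nothing in the labels says that the replicates came from separate cultures, and their spread may be technical.

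**Figure D1:**
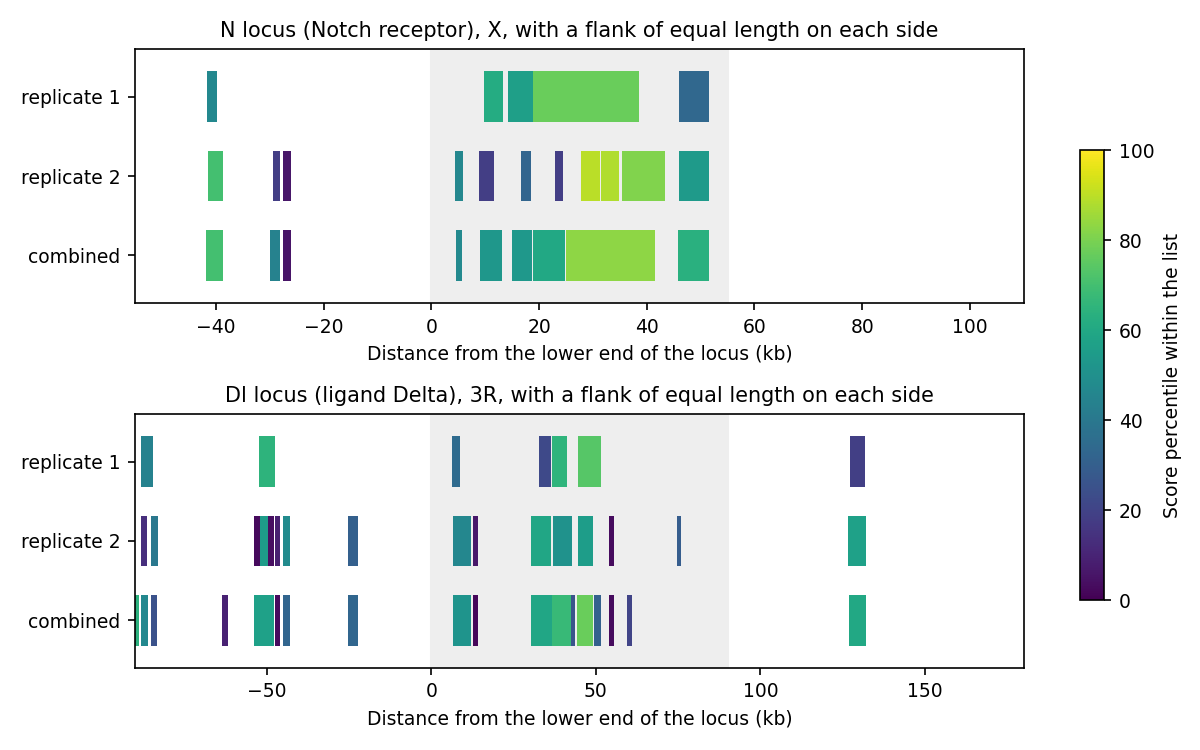
Enriched regions of the 3 lists along the N locus (top) and the Dl locus (bottom), both shaded, with a flank of equal length on each side; the horizontal axis is the distance from the lower end of the locus in kb and the colour is the percentile of the region's score within its list. N carries a block that reaches 51.6 kb, covered to 79.5% of its span in replicate 1 and 60.1% in replicate 2, followed by a flank with 0% covered, and Dl carries a central block and a smaller group at 6.35 to 14.2 kb.

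The Notch locus held a block of the mark that replicate 1 drew as few wide regions and replicate 2 as more and narrower ones with gaps between them. In replicate 1 there were 4 regions, and the widest of them in the locus, X:3038918-3058633, spanned 19.7 kb. It held 59.3% of the covered bases of the locus and was wider than 98.2% of all regions of that list. On either side of it lay X:3034239-3038783 (4.54 kb), X:3029827-3033230 (3.40 kb) and X:3066037-3071607 (5.57 kb). From the first start to the last end the block measured 41.8 kb, of which 79.5% was covered.

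In replicate 2 the N locus held 8 regions, of which the widest, X:3055439-3063466, spanned 8.03 kb. Only 111 bases parted the adjacent regions X:3047880-3051364 (3.48 kb) and X:3051476-3054922 (3.45 kb), which had the highest scores of the locus, 1.14 and 1.11. Toward lower coordinates there were smaller regions of 1.45 to 2.81 kb, among them X:3024377-3025913 (1.54 kb), which replicate 1 lacked. The region at the other end, X:3065894-3071522 (5.63 kb), was nearly that of replicate 1. The marked span was 47.1 kb, and 60.1% of it was covered, so replicate 2 drew a longer but more broken block. The combined list held 6 regions, the widest of 16.5 kb at X:3044942-3061471, and covered 78.4% of a span of 47.0 kb.

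The longest gap between neighbouring regions of the N locus lay at a different place in each replicate. Replicate 1 had it at X:3058634-3066036 (7.40 kb) and replicate 2 at X:3031633-3036567 (4.93 kb). The combined list had it at X:3061472-3065886 (4.42 kb). Replicate 2 covered 69.3% of the bin from 40 to 45 kb, in which replicate 1 had 0%. A gap ending near 45.9 to 46.0 kb from the lower end of the locus was present in all 3 lists, although its lower edge moved from 38.6 kb in replicate 1 to 43.5 kb in replicate 2.

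The Delta locus held a central block, a smaller group at lower coordinates and long unmarked stretches. In replicate 1 there were 4 regions. The central 3 were 3R:15132634-15136344 (3.71 kb), 3R:15136706-15141341 (4.64 kb) and 3R:15144615-15151407, the widest at 6.79 kb. The fourth, 3R:15106347-15108669 (2.32 kb), lay alone at lower coordinates beyond a gap of 24.0 kb. Above the central block the remaining 38.6 kb of the locus were unmarked in this replicate.

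Replicate 2 found the same 4 places in the Dl locus and added 3 narrow regions. Its central regions were 3R:15130179-15136455 (6.28 kb, the widest), 3R:15136918-15142610 (5.69 kb) and 3R:15144621-15149153 (4.53 kb). The group at lower coordinates was larger than in replicate 1, with 3R:15106581-15112004 (5.42 kb) and the narrow 3R:15112687-15114249 (1.56 kb). The other additions were 3R:15153908-15155450 (1.54 kb) and 3R:15174511-15175851 (1.34 kb), and the longest gap between regions, 3R:15155451-15174510, spanned 19.1 kb. The combined list held 9 regions. Its widest, 3R:15130243-15136520 (6.28 kb), began the central block, and its longest gap between regions, of 16.1 kb, was 3R:15114192-15130242. The span from the first to the last region was covered to 38.8% and 38.1% in the replicates and to 54.8% in the combined list. For N the span was covered to 79.5%, 60.1% and 78.4%. These spans are not alike, since that of Dl takes in the long gap between the lower group and the central block. In replicate 2 it also reaches up to the lone region 3R:15174511-15175851. The covered share of the central block alone was not computed, so block was not compared with block.

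Along the loci, bins of 5 kb showed where the replicates differed. In N the stretch from 10 to 30 kb was covered to between 79.8% and 100% per bin in replicate 1, but to between 28.9% and 42.4% in replicate 2. From 30 to 35 kb they were level at 100% and 96.2%, and from 45 to 50 kb at 79.3% and 82.1%. Of the 11 bins of N, 0 were unmarked in both replicates and 4 differed by over 50 percentage points. In Dl, 8 of 18 bins were unmarked in both and 1 differed by over 50 points, the bin from 10 to 15 kb with 0% and 71.4%. The share of such bins over the whole of X and 3R was not computed. These counts therefore describe the loci only, and whether they are unusual is not known. By the mean of the replicates, the 2 densest bins of Dl were those from 35 to 40 kb, at 92.8% and 90.8%, and from 45 to 50 kb, at 100% and 83.1%. In replicate 2 alone the densest was the bin from 30 to 35 kb. Between and below these, the bins from 30 to 35 kb and from 40 to 45 kb were covered to 47.3% and 34.5% in replicate 1, and to 96.4% and 59.8% in replicate 2. These 2 bins of Dl thus reached the range of the denser bins of N. The lower share of the bin from 30 to 35 kb in replicate 1 includes unmarked bases below the central block, which began at 32.6 kb. N also had sparse bins in replicate 1, with 3.46% from 5 to 10 kb and 0% from 40 to 45 kb. The bins therefore do not set the central block of Dl below the block of N.

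**Figure D2:**
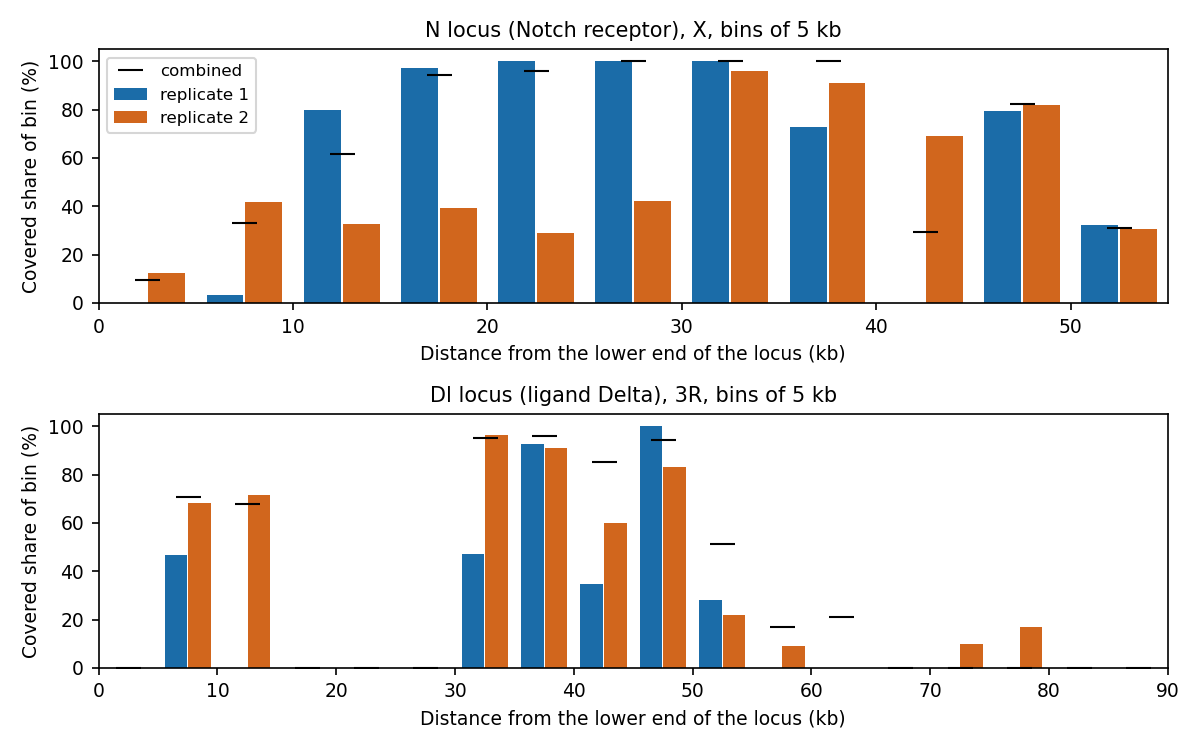
Covered share in percent of each 5 kb bin along the N locus (top, 11 bins) and the Dl locus (bottom, 18 bins), against the distance from the lower end of the locus in kb; bars are the 2 replicates and dashes the combined list. Between 10 and 30 kb of N the bars of replicate 1 stand at 79.8% or above and those of replicate 2 at 42.4% or below, and 8 bins of Dl are empty in both replicates.

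Against windows of equal length on the same chromosome, N lay in the upper part of the range and Dl somewhat below the middle. Windows were set every 1 kb, so they overlap and give a description only. On X, 15.0% of 22368 windows were covered at least as much as N in replicate 1, against 29.2% in replicate 2 and 23.2% for combined regions, where the median window was covered to 27.5%, 29.6% and 38.1%. On 3R, 63.7% of 27816 windows were covered at least as much as Dl in replicate 1, against 56.4% in replicate 2 and 57.4% for combined regions, with medians of 28.7%, 33.4% and 38.1%. Neither locus was therefore at an extreme of coverage for its chromosome. The chromosomes as a whole were alike, with X and 3R each covered to 30.2% in replicate 1, and to 33.7% and 34.4% in replicate 2.

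**Figure D3:**
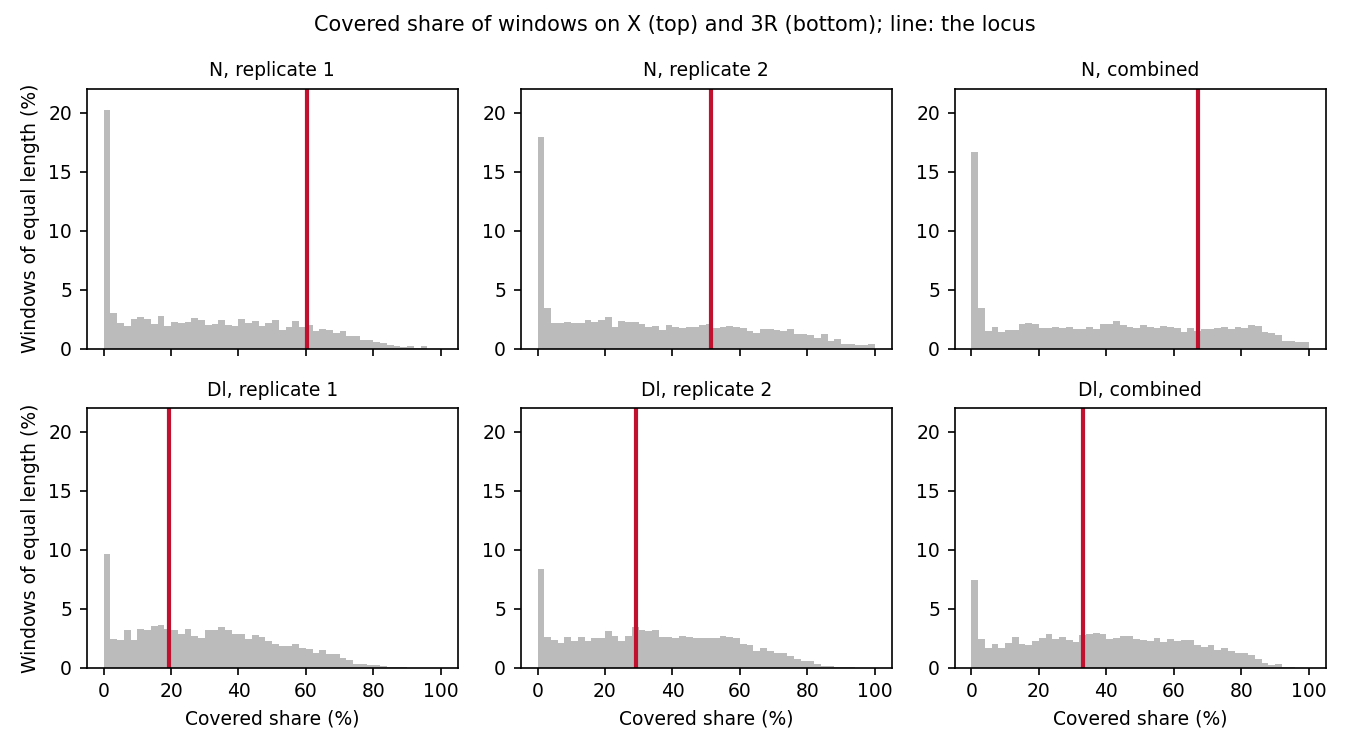
Share in percent of all windows of the same length as the locus (vertical axis, every 1 kb of the chromosome) by their covered share in percent (horizontal axis), for N on X (top) and Dl on 3R (bottom) in each list; the line marks the locus itself. The N line lies to the right of most windows, with 15.0% to 29.2% of windows at or above it, and the Dl line near the middle.

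Windows were also compared by their longest region and their longest unmarked stretch. In N the longest uninterrupted region was longer than that of 93.5% of the windows of X in replicate 1, but of 65.2% in replicate 2, where that stretch was split. Its longest unmarked stretch was 9.83 kb in replicate 1 and 4.93 kb in replicate 2, and 14.4% and 9.51% of windows had a shorter one. In Dl the longest region was longer than that of 39.5% and 41.3% of the windows of 3R. The longest unmarked stretch of Dl, 38.6 kb and 19.1 kb, ranked above 57.4% and 33.1% of windows. Within its window, N thus had short longest gaps in both replicates, although in replicate 2 its 8 regions were more than 77.1% of windows held. The longest unmarked stretch of Dl lay nearer the middle of its chromosome. In replicate 1 both stretches were cut by a window edge, and belonged to gaps of 49.5 kb at N and 75.8 kb at Dl. The longest gaps between N regions, 7.40 kb and 4.93 kb, were longer than 72.3% and 74.6% of the gaps of X.

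Unmarked stretches of 28.8 kb or more lay on either side of both loci. Past the last N region, no enriched region followed for 77.2 kb in replicate 1 and 102 kb in replicate 2, and these gaps were longer than 96.3% and 98.3% of the gaps between neighbouring regions of X. Below the first N region the gap was 49.5 kb and 30.3 kb, longer than 94.3% and 94.1%. The median gap of X was 2.25 kb in replicate 1 and 1.63 kb in replicate 2.

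Past the last Dl region the gap was 75.8 kb and 50.8 kb, longer than 97.0% of the gaps of 3R in each replicate. Below the first Dl region it was 54.0 kb and 28.8 kb, longer than 95.1% and 94.5%. A long gap holds more positions than a short one, so the gaps were also ranked by bases. Of the unmarked bases between regions of X, 45.4% and 56.1% lay in gaps shorter than the lower and the upper outer gap of N in replicate 1, and 38.9% and 67.1% in replicate 2. On 3R the shares for Dl were 56.5% and 66.7%, then 45.0% and 57.9%. Most gaps of these chromosomes were thus shorter, but the outer gaps were of a middling length for unmarked sequence. The windows leave part of each gap inside the locus, and no region lay within 22.2 kb outside either of them.

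Against its flanks of equal length, N had one of the larger contrasts of X, and Dl did not have one on 3R. The flank of N at lower coordinates was covered to 3.46% in replicate 1 and 10.4% in replicate 2, and the one at higher coordinates to 0% in both. N exceeded the mean of its flanks by 58.7 percentage points in replicate 1, by 46.3 in replicate 2 and by 61.0 among combined regions. As many points or more were found for 1.20%, 4.12% and 1.40% of 22258 windows of X. Dl exceeded its flanks by 12.3, 17.1 and 19.4 points, which 29.5%, 24.7% and 24.5% of 27636 windows of 3R reached. The windows were placed to hold these genes, so they are not arbitrary windows of the chromosome, and the share of windows is a description. In the gene order of release 6, CG4116 comes before N, and CG18508, Fcp3C, CG3939 and dnc follow it. The same order has CG44174 before Dl. After Dl come the non-coding genes lncRNA:CR44175, hpRNA:CR46343 and lncRNA:CR43258, and then the coding genes CG43203 and Ino80. Which of these lie under a region or a gap was not analysed here, nor was the placing of regions relative to the promoters, exons or introns of N and Dl.

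The scores of the regions set the receptor above the ligand less clearly than coverage did. The score is the authors' own value for each region, with no stated scale, and is therefore also given as its percentile within the list. In the list of replicate 1 the highest score was 0.913 in N, the 77.2nd percentile, and 0.877 in Dl, the 73.6th. In replicate 2 it was 1.14 in N, the 89.6th percentile, and 0.715 in Dl, the 59.4th. In the combined list it was 0.864 in N and 0.781 in Dl, the 83.1st and 77.0th. N had the higher top score in all 3 lists, by little in replicate 1. These were the widest regions of the locus, apart from that of N in replicate 2 and that of Dl in the combined list.

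The regions of each locus that were among the highest-scoring 25% of their list were also counted. N had 1 of 4 in replicate 1, against 3 of 8 in replicate 2 and 1 of 6 among combined regions. Dl had 0 of 4, 0 of 7 and 1 of 9, the last being 3R:15144271-15149235 with a score of 0.781. By construction 25% of every list passes. The counts lie around that share for N and below it for Dl, but they are too small to tell either locus from it. Among windows of equal length, the highest score of N was above that of 39.8% of the windows in replicate 1 and 54.0% in replicate 2, and that of Dl above 30.5% and 15.9%. Windows without a region counted as lower, which raised these ranks more on X. In replicate 1, 17999 of 22368 windows of X and 25771 of 27816 of 3R held a region. Among windows with a region, the score averaged over covered bases was above 34.0% and 41.3% of windows for N. For Dl it was above 32.3% and 15.9%, so the loci were close in replicate 1.

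Score rose with width over the regions of a list (Spearman rho 0.819 for replicate 1 and 0.790 for replicate 2), so each score was also ranked among the 500 regions of its list nearest in width. The 19.7 kb region of N in replicate 1 then ranked at 14.4%, a low score for so wide a region. The last region of N, with its edges alike in the lists, ranked at 4.00% in replicate 1 and 17.0% in replicate 2. The adjacent regions of N with the highest scores in replicate 2 ranked at 90.4% and 88.0%. They lie inside the wide region of replicate 1, which covered 100% of each. The central regions of Dl ranked at 6.60%, 53.0% and 47.2% in replicate 1 and at 19.2%, 11.8% and 19.2% in replicate 2, in order of position. Low ranks for width were therefore found in both loci: N also had X:3028822-3031632 of replicate 2 at 7.00%, beside 59.6% and 38.8% for its other regions of replicate 1 and 45.0% to 93.4% for its other regions of replicate 2.

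**Figure D4:**
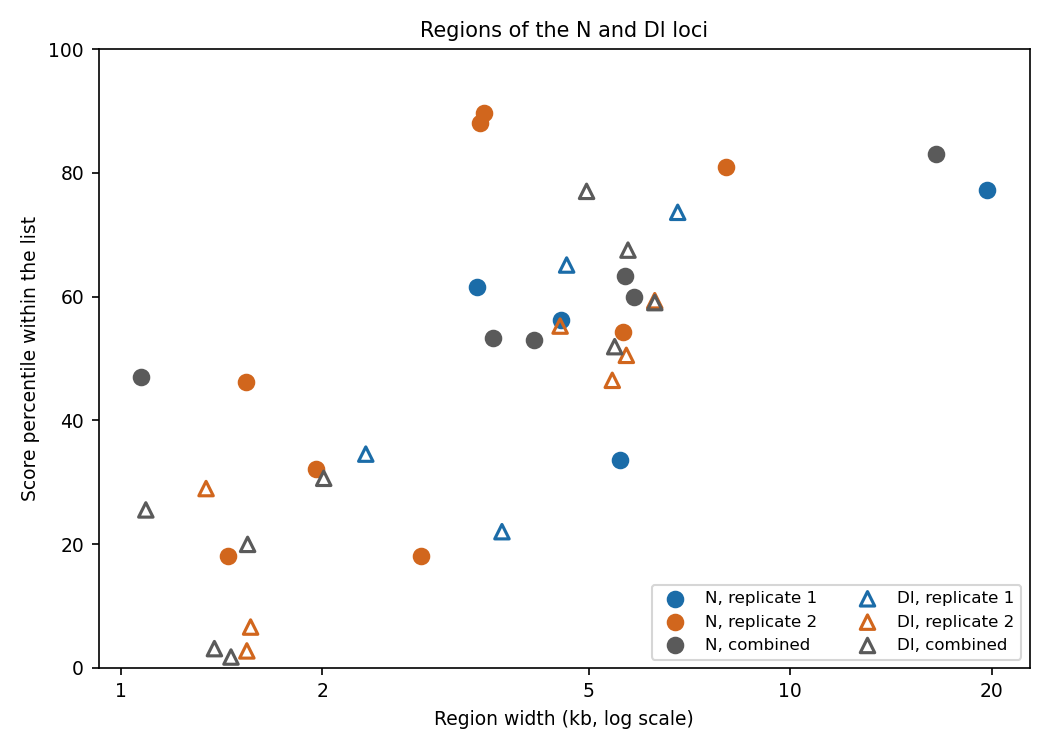
Percentile of each region's score within its list (vertical axis) against its width in kb (horizontal axis, log scale) for the 18 regions of N (filled circles) and the 20 of Dl (open triangles), coloured by list. The highest points are 2 N regions of replicate 2 at the 89.6th and 88.1st percentiles, and the narrow Dl regions of replicate 2 and of the combined list lie lowest, down to the 1.75th.

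The replicates met in most places but shared only part of the marked bases, 51.1% of their union in N and 50.7% in Dl. All 4 regions of N and all 4 of Dl in replicate 1 overlapped a region of replicate 2, against 90.1% of the whole list. Of the regions of replicate 2, 7 of 8 in N and 4 of 7 in Dl overlapped replicate 1, against 75.3% of its whole list. With so few regions these counts do not depart from the lists at large in any way that could be tested. In N, 20.8 kb were marked in both replicates, 12.4 kb in replicate 1 alone and 7.52 kb in replicate 2 alone. In Dl, 14.8 kb were shared, 2.71 kb were in replicate 1 alone and 11.6 kb in replicate 2 alone.

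The shared part was below the middle of the windows for both loci. The median window shared 60.4% of its union on X and 64.6% on 3R, and 34.5% and 21.4% of windows shared less than N and Dl did. Among windows whose union covered within 10 percentage points of the same share, the medians were 66.0% and 61.5%, with 14.7% and 25.3% of windows below. The direction of the surplus differed between the loci, since replicate 1 covered more of N and replicate 2 more of Dl. Over the chromosomes replicate 2 covered more than replicate 1 on both X and 3R.

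Several edges fell close to each other in all 3 lists. The last N region began at 3066037, 3065894 and 3065887 in replicate 1, replicate 2 and the combined list, a spread of 150 bases, and ended within 85 bases. In Dl the lowest region began within 234 bases. The last central region of the replicates began at 15144615 and 15144621, and a combined region at 15144271, within 350. The combined list set a further region above it, 3R:15149518-15151527, of which replicate 1 covered 94.0% and replicate 2 covered 0%. Over the 8 edges of replicate 1 in each locus the median spread to the nearest edges of the other lists was 1301.5 bases in N and 809.5 in Dl. Of the 8, 3 in N and 4 in Dl were within 500 bases. The same share over all edges of the lists was not computed, so whether these counts are usual is not known. The combined list was taken to draw on both replicates, so its edges are no independent agreement. The nearest edge can belong to another region, so these spreads depend on the pairing. The largest, 6549 bases, was at the upper end of the widest N region of replicate 1, 3058633. Its nearest edge in replicate 2, 3054922, was the end of an inner region. The replicate 2 region that crossed 3058633 ended at 3063466.

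The regions seen in a single replicate were narrow, apart from edges that differed. In N this was X:3024377-3025913 of replicate 2, with a score of 0.592. In Dl there were 3, all of replicate 2: 3R:15112687-15114249 (score 0.249), 3R:15153908-15155450 (0.166) and 3R:15174511-15175851 (0.472). The first pair of these had scores at the 6.59th and 2.74th percentiles of the list, near its lower end. The last met no region of the combined list either, while the combined region 3R:15159515-15161061 (score 0.308) met neither replicate. Bases outside both replicates made up 10.2% of the combined bases of Dl and 0.0841% of those of N.

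Since the Dl locus is 90.0 kb long and the N locus 55.0 kb, the comparison was repeated with windows of the N length inside the Dl locus. The 36 such windows were covered to between 23.2% and 31.8% in replicate 1, below the 60.4% of N. In replicate 2 they ranged from 26.5% to 45.5%, below the 51.5% of N by 6.01 percentage points at the least. The receptor locus thus stayed above each of these windows in both replicates, by a margin that in replicate 2 was smaller than the 8.91 points between the replicates of N.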

How the data were processed

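Region lists of 2 H3K4me1 ChIP samples and a combined list were used. Per the submitters' processing notes, Bowtie 0.12.7 aligned the reads; coordinates are on FlyBase release 5, per the file headers. The caller, its threshold and the origin of the combined list were not given in the sources used here. Every deposited region has 1 score, whose scale is not stated, so score was used as deposited and as a rank within its list. The wider a caller joins neighbouring signal, the fewer and wider the regions, and the bases of joined gaps count as covered. Merging regions closer than 500 bases gave mean covered shares of 56.2% for N and 24.8% for Dl. The effect of wider joining on the covered shares was not tested.

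Regions named depleted were set aside. Covered share is the percentage of bases of a locus inside enriched regions. Windows as long as each locus began every 1 kb of its chromosome. Values are means with the SD over 2 replicates, without a test. Depth is unknown, so no interval for counting error is given. The members and lists were chosen with earlier results of these data known. Text names N and Dl, and in each list the widest and highest-scoring region and the longest gap; other regions are named to account for all members, chosen after their values were seen. Both genes were matched by name in a gene table of release 6, used for gene order only; sequences and other genes of the pathway were not analysed here. Alternatives were regions of higher score, merged regions, moved bounds, other windows and single lists. The covered shares came back as made on 5 simulated chromosomes. Python 3.11.15, NumPy 2.4.6 and Matplotlib 3.10.9 were used.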

Additional observations from a re-analysis of the deposited data

How the results depend on the processing

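The covered share of N was above that of Dl in all 11 alternatives run, with a difference of 17.3 to 41.0 percentage points. This range mixes means of 2 replicates with single values. The lowest, 17.3 ± 16.0 (SD, n = 2), was against the best-covered window of the N length inside Dl. It was 28.7 in replicate 1 and 6.01 in replicate 2. That alternative was chosen after seeing the data, as was the median such window (24.6). Leaving out a replicate gave 22.2 and 41.0. The covered share itself moved with the regions used. For N it was 43.9% with the higher-scoring 50% of each list, 31.5% with the highest-scoring 25%, 67.8% and 41.0% with bounds narrowed and widened by 10 kb, 67.0% in the combined list and 37.9% for bases found in both replicates, and leaving out a replicate gave 51.5% to 60.4%. For Dl the same settings gave 15.5% and 0% by score, 27.2% and 19.9% by bounds, 33.2% and 16.4%, and 19.4% to 29.3% without a replicate. The 0% follows from the construction, since no Dl region of either replicate was in the highest-scoring 25%. At that setting the difference is therefore the share of N alone. Percentiles among windows stayed between 70.8 and 85.0 for N and between 36.3 and 43.6 for Dl. The shared part of the union in N was 26.6% with the higher-scoring 50% and 46.9% in the narrowed locus; the cause was not tested. In Dl it was 47.2%, 49.8% in the narrowed locus and 52.3% after merging regions closer than 500 bases. N minus Dl was taken within each replicate. Between the ChIP and input samples, which share replicate numbers, the inputs have no region list here. No paired analysis was possible because of this. With 2 replicates and unknown depth, differences smaller than the spread between replicates could not be resolved.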

Other observations

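Neither locus held a region of significant depletion: 0 of the 39 in replicate 2 and 0 of the 17 in the combined list overlapped the N or the Dl window. Replicate 1 listed 0 in all. With so few depleted regions in any list, their absence from windows this short says little about either locus. Several neighbouring regions were parted by very short gaps. In Dl the combined list left 59 bases between 3R:15136716-15142440 and 3R:15142500-15143589, and in N replicate 1 left 134 bases between X:3034239-3038783 and X:3038918-3058633. Gaps under 500 bases numbered 4 in N and 5 in Dl over the 3 lists, so the number of regions depends on how such gaps were treated more than the covered share does.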
